A study of Mus musculus with 7 samples.

Results

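The 15 genes described here were listed below 0.5 TPM (a read count divided by exon length, with every library brought to one common sum) in both day 7 libraries of 4F-mini-oocytes and at 10 TPM or more in all 5 mini-oocyte libraries of day 21. Of 55364 genes listed, 31587 lay below the day 7 limit, and 48 of these (0.152%) also met the day 21 limit. Dropped by symbol were 33 of the 48, namely 29 Gm gene models, 1 Rik gene, 1 microRNA, 1 immunoglobulin segment and the transgene factor Sohlh1, and other families set to be dropped, such as Nlrp, Slc and Obox, held none of them. They are Cpa1, Ddit4, Mt4, Cd7, Pdx1, Orai1, Acot3, Clec12a, Trh, Susd3, Insm1, Lef1, Cdh4, Sh3gl3 and Tbc1d30. The genes were chosen by these TPM values, so their day 7 and day 21 levels are given without a test.

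Mini-oocytes are oocyte-like cells that form in culture from mESCs (mouse embryonic stem cells) when oocyte transcription factors are expressed, without ovarian somatic cells. The 4F line carries Nobox, Figla, Tbpl2 and Lhx8, and the 8F line adds Stat3, Dynll1, Sub1 and Sohlh1. The paper also describes an Npm2-mCherry reporter cassette in the 8F line. All groups came from female mESCs of a hybrid 129/C57BL6 background with the BVSC reporters, the factors were stabilised by Shield-1 until it was omitted from day 12, and the medium held stem cell factor and Y-27632, a ROCK inhibitor. RNA-seq was available for 4F at day 7 (n = 2, pools of 1000 cells), 4F at day 21 (n = 3, pools of 10 cells) and 8F at day 21 (n = 2, pools of 10 cells). Day, pool size and the omission of Shield-1 from day 12 changed together and cannot be told apart. An 8F group at day 7 was not analysed here. The labels do not say whether replicates were separate cultures, so the p-values measure the spread between these samples.

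A growing oocyte stores a large set of transcripts before it stops transcription, and most of the well-known ones, such as those of the zona pellucida and the subcortical maternal complex, are germline-restricted. The 15 genes are mostly known from other tissues: a digestive enzyme and transcription factors of the pancreas, a neuropeptide precursor, leukocyte surface receptors, a squamous epithelial metallothionein and a calcium channel. In bulk RNA, fewer cells with a transcript and less of it per cell cannot be told apart.

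The cells matched their label by oocyte markers, since 16 of 16, among them Zp3, Gdf9 and Bmp15, were at 10 TPM or more in all 5 day 21 libraries. None of the 16 is among the 15 genes, and at day 7 their summed level was already 18785 to 22284 TPM. Of 14 granulosa cell markers, none reached 10 TPM in all 5 libraries of day 21, and their sum was 14.1 to 30.3 TPM there and 16.2 to 23.1 TPM at day 7. The summed level of 12 trophoblast markers was 1173 to 1746 TPM at day 7 and 38.5 to 149 TPM at day 21. Most of the day 7 sum came from the keratin genes Krt8 (659.5 and 863.3 TPM) and Krt18 (436.4 and 658.1 TPM). Hand1, Tfap2c and Gata3 were at 8.30 to 63.6 TPM at day 7, and Cdx2, Elf5, Gcm1 and Prl3d1 were listed at 0 in both day 7 libraries. The part of this sum in the values below was not tested. Estimated reads on genes were 9506135 and 12317535 in the day 7 libraries and 14612696 to 18027834 at day 21.

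To show the sequence around annotated starts, the promoters of Cpa1, Mt4, Pdx1 and Orai1 are printed. They are the 4 genes with the highest day 21 means among the 7 listed at 0 in both day 7 libraries. Where transcription starts in mini-oocytes was not tested. Each run of 300 bases holds 250 before and 50 from the RefSeq start on GRCm38.p6 (mm10), plus strand: chr6:30638968-30639267 for Cpa1, chr8:94136954-94137253 for Mt4, chr5:147269847-147270146 for Pdx1 and chr5:123014824-123015123 for Orai1. Capitals mark the E-box CANNTG, the letters that basic helix-loop-helix factors such as Figla and Sohlh1 recognise.
Cpa1: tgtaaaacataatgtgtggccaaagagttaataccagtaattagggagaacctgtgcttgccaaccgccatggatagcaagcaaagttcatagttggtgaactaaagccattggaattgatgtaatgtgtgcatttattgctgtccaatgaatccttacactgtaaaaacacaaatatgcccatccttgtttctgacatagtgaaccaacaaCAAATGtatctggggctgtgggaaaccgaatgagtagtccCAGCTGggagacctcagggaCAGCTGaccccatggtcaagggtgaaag
Mt4: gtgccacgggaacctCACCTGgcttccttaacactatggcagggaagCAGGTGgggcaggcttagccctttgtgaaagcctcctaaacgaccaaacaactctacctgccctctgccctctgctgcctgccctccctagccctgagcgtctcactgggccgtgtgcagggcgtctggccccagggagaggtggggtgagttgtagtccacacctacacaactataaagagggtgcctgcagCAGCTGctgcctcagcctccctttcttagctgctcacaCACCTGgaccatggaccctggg
Pdx1: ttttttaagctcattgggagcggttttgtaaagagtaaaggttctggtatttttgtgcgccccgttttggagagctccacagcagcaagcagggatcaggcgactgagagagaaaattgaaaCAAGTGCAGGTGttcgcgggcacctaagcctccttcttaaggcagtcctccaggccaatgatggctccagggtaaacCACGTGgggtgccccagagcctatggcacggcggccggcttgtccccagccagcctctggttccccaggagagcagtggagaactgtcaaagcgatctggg
Orai1: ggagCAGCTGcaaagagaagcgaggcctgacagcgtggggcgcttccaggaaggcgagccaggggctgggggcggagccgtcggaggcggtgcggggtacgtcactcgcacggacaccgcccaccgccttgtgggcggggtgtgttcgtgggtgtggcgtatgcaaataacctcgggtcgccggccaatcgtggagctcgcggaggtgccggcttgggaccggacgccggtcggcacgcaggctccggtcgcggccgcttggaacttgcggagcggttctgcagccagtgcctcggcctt

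Windows were found for 11 of the 15 genes, and those of Insm1, Cdh4, Cd7 and Tbc1d30 are not shown here. CANNTG, searched on both strands like every motif here, lay in a window of 10 of the 11, the exception being Ddit4, beside 75.0% of all 27018 genes with windows. Its form CAGCTG lay in windows of 5 genes (Cpa1, Mt4, Orai1, Lef1 and Sh3gl3) beside 18.3% of all genes, CAGGTG in 5 beside 22.6%, CATCTG in 2 beside 19.2% and CACGTG in 2 (Pdx1 and Lef1) beside 8.09%, and each of these also counts as CANNTG. The homeobox letters TAATTG, named for Nobox, were in none of the 11 beside 9.23%, TAATTA in Cpa1 alone beside 6.13%, and TGATTG, named for Lhx8, in 3 beside 16.0%. TATAAA, bound by factors of the TBP family to which Tbpl2 belongs, was in windows of Mt4 and Lef1, beside 15.7% of all genes. It lay 30 bases before the start in Mt4 and 231 bases before a start inside the gene in Lef1. The 11 genes hold 15 windows, Lef1 the most, and all 27018 genes hold 32841. A gene with more windows has more chances to hold a motif, so these shares are not fully alike. The windows ranged from AT-rich in Clec12a (37.7% GC) to GC-rich in Orai1 (70.3% GC), with a median of 56.7% against 52.7% over all windows. A match is a description of these letters and not a binding site.

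**Figure D1:**
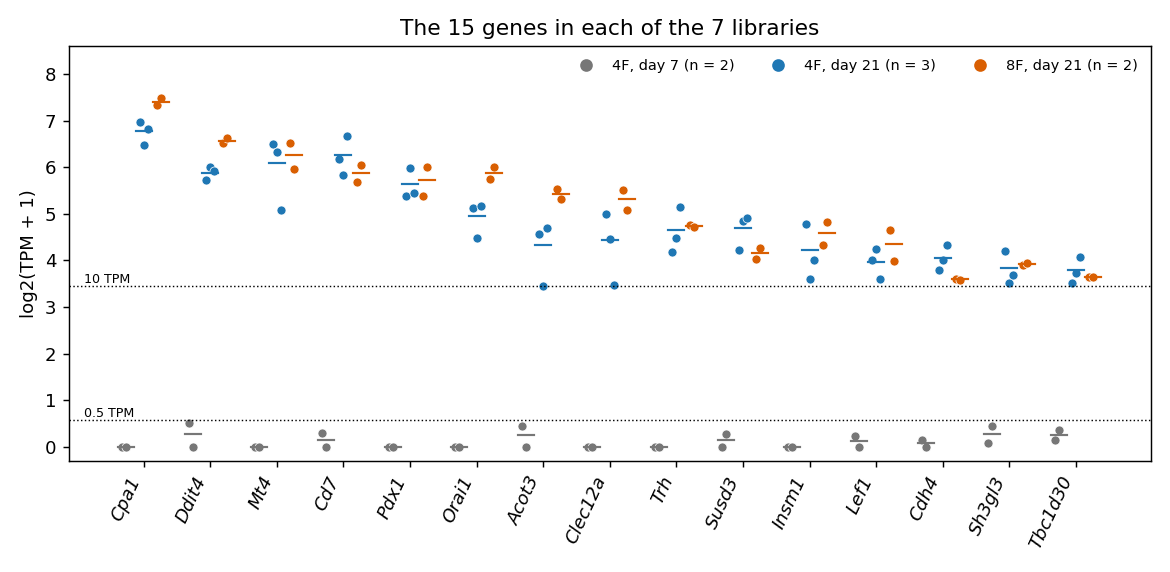
The vertical axis is log2(TPM + 1), each point is 1 library and each bar the log2(TPM + 1) of a group's mean TPM, for 4F at day 7 and both lines at day 21. The dotted lines are the limits of the rule, 0.5 and 10 TPM, and the genes are ordered by their mean at day 21, from Cpa1 to Tbc1d30.

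Few or no reads stood behind the day 7 values. Estimated reads of a single gene numbered at most 10 in a day 7 library and between 55 and 1751 in a day 21 library. Cpa1, Mt4, Pdx1, Orai1, Clec12a, Trh and Insm1 were listed at 0 in both day 7 libraries, 6 genes in 1 of them, and Sh3gl3 and Tbc1d30 in neither. The highest day 7 reads were 8 for Sh3gl3 and 10 for Tbc1d30, both in replicate 2, and 6 for Lef1 in replicate 1. For a transcript of 1 kb, 3 reads amount to 0.764 and 0.575 TPM in the day 7 libraries, a limit that covers counting error only. Mt4 has 398 exonic bases and Clec12a 5528, so the same TPM stands for far fewer reads in Mt4. The 15 genes summed to 1.48 and 0.842 TPM at day 7, to 516.1 to 581.7 TPM in 4F at day 21 and to 695.1 to 721.5 TPM in 8F.

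The limits cut through a range without a gap. Just inside the day 21 limit were Acot3 (10.0 TPM in its lowest library), Clec12a (10.1) and Tbc1d30 (10.5), and just outside it Cited4 (8.29), Il7 (7.19) and Upp1 (7.05). Just inside the day 7 limit were Ddit4 (0.436 TPM in its higher library), Acot3 (0.371) and Sh3gl3 (0.355), and just outside it Kcnq1 (0.591), Mrvi1 (0.635) and Fam155a (0.674). With TPM rescaled by the median of ratios, 9 genes met the rule, and Acot3, Clec12a, Lef1, Cdh4, Sh3gl3 and Tbc1d30 did not.

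Cpa1 encodes carboxypeptidase A1, a secreted zinc protease that the acinar cells of the pancreas make as a digestive proenzyme (ENSMUSG00000054446.8, mm10 chr6:30639218-30645363, plus strand, 10 exon blocks of 1750 bases). It was listed at 0 in both day 7 libraries. At day 21 it was at 125.0, 87.7 and 111.0 TPM in 4F and at 159.3 and 177.1 TPM in 8F. It held the highest mean of the 15 genes, and every 8F library lay above every 4F library. Its mean was 107.9 ± 18.8 TPM (SD, n = 3) in 4F and 168.2 ± 12.5 TPM (SD, n = 2) in 8F.

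Genes of the acinar cell did not share this level. Of the 18 other genes on a list of acinar markers, 7 were listed at 0 in all 7 libraries: the transcription factor gene Ptf1a, the zymogen genes Prss2, Ctrb1 and Cela3b, and Sycn, Gp2 and Pnliprp1. The other 18 summed to 21.6 to 21.9 TPM at day 7, to 8.75 to 20.6 TPM in 4F at day 21 and to 15.3 to 18.8 TPM in 8F. Of the 7 that passed the filter on low values, limma at FDR 0.05 called 2 higher and 2 lower at day 21 than at day 7 in 4F, beside 25.3% of all genes called higher and 15.3% lower. The higher ones were Cpb1, another pancreatic carboxypeptidase, from a mean of 0.146 to 4.38 TPM, and Ctrl, a chymotrypsin-like protease, from a list value of 0 to 2.86 TPM. The lower ones were the lipase gene Cel, from 4.08 to 0.0865 TPM, and the elastase gene Cela2a, from 1.29 to 0.206 TPM.

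Among the metallocarboxypeptidases, of which 22 of 23 were in the table, Cpa1 was the one gene that met the rule. Of 15 others tested between the days in 4F, 3 were higher at day 21 (Cpb1, Cpb2 and Cpxm2) and 2 lower (Cpa6 and Cpd). Over all genes tested, 25.3% were called higher and 15.3% lower. Cpb2, the plasma carboxypeptidase B that acts in fibrinolysis, went from a mean of 8.75 to 30.9 TPM. The genes beside Cpa1 on its chromosome did not move with it: Cpa5, 7473 bases away, was at most 1.51 TPM in any library, and Cep41, 8094 bases away on the other strand, was at 37.4 and 38.8 TPM at day 7 and 38.5 to 46.6 TPM at day 21. None of the 15 genes was on the other 11 lists of oocyte, granulosa, trophoblast, LTR-driven, Oas, Fbxw, Tcl1, Khdc1, Tdpoz, oocyte-secreted and catecholamine genes.

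Pdx1 encodes the homeobox factor required for the pancreas bud and for insulin-producing cells (mm10 chr5:147269959-147275848, plus strand). Both day 7 libraries listed it at 0, and at day 21 it was at 40.7, 62.0 and 42.9 TPM in 4F and 40.7 and 63.0 TPM in 8F. The 4F and 8F libraries covered the same range. Estimated reads were 388 to 768 per day 21 library, so the level did not rest on a handful of reads.

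Insm1 encodes a zinc finger repressor of endocrine and neuroendocrine differentiation from a single exon (mm10 chr2:146221921-146225020, plus strand). It was listed at 0 at day 7 and was at 26.5, 11.2 and 15.2 TPM in 4F and 19.2 and 27.1 TPM in 8F. Trh, the precursor gene of thyrotropin-releasing hormone, was likewise listed at 0 at day 7 and was at 17.1, 21.2 and 34.5 TPM in 4F and 25.9 and 25.4 TPM in 8F (mm10 chr6:92242061-92244650, minus strand). Its receptor genes were close to silent, with Trhr listed at 0 in all 7 libraries and Trhr2 at most 0.344 TPM. In 4F the highest library was more than 2 times the lowest for both genes.

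A wider list of pancreatic endocrine and islet genes, written after the data were seen and given here as levels without a test, held genes at very different levels. Neurog3, the factor that starts endocrine differentiation, was at 6.70 and 14.3 TPM at day 7, at 228.5 to 281.3 TPM in 4F at day 21 and at 145.7 and 142.4 TPM in 8F, and so did not meet the day 7 limit. Chga, a granin of secretory vesicles, was at 25.2 and 11.2 TPM at day 7, 321.5 to 355.4 TPM in 4F and 183.9 and 203.5 TPM in 8F. Both were higher in every 4F library of day 21 than in either 8F library, whereas Pdx1 and Insm1 overlapped between the lines. Such a separation is common: 32.4% of the 8319 tested genes at 10 TPM or more in all 5 day 21 libraries were lower in 8F without overlap. Mafa was at 5.14 to 11.3 TPM and Isl1 at 5.07 to 9.88 TPM over the 5 day 21 libraries. Neurod1, Nkx2-2, Pax4 and the hormone genes Ins1, Gcg and Sst were listed at 0 in all 7 libraries.

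**Figure D2:**
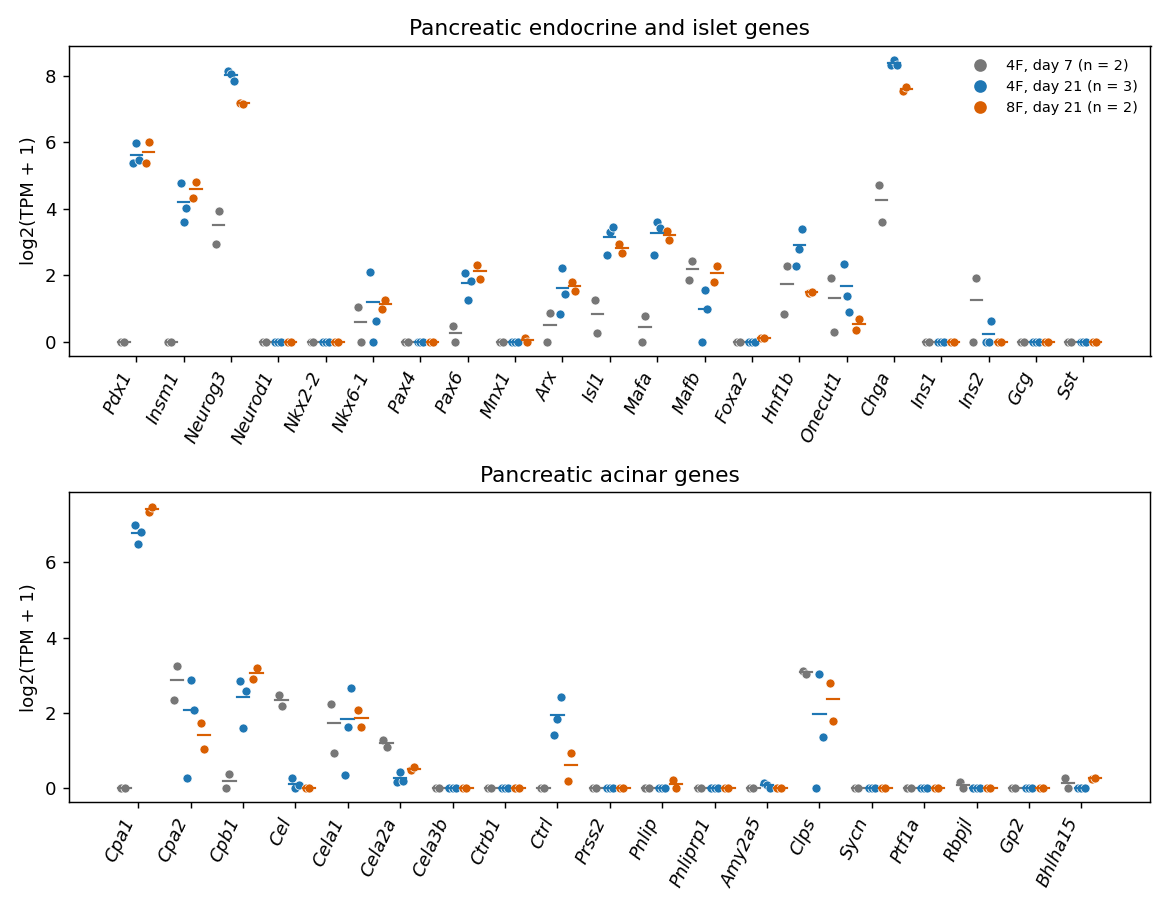
Each point is 1 library on the log2(TPM + 1) scale and each bar the group's mean, for the endocrine and islet list (top, written after the data were seen) and the acinar list (bottom). Pdx1, Insm1, Neurog3 and Chga stand high at day 21 in the top panel and Cpa1 alone in the bottom one, while Ins1, Gcg, Sst and Ptf1a lie at 0 throughout.

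Orai1 encodes the pore of the channel through which calcium enters when the endoplasmic reticulum store empties (mm10 chr5:123015074-123030456, plus strand). Both day 7 libraries listed it at 0, and at day 21 it was at 33.9, 21.2 and 35.1 TPM in 4F and 52.4 and 63.3 TPM in 8F. All 8F values lay above all 4F values. The other channel genes followed another course: Orai3 was at 18.4 and 8.50 TPM at day 7, 4.39, 1.40 and 0.501 TPM in 4F and 4.29 and 5.12 TPM in 8F, and Orai2 was at most 1.33 TPM in any library. Of the genes for the calcium sensors that gate the channel, Stim2 was at 26.7 and 21.0 TPM at day 7 and 24.5 to 35.7 TPM at day 21, and Stim1 at 9.12 and 7.72 TPM and then 3.22 to 5.49 TPM.

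Ddit4 (REDD1) encodes a stress-induced inhibitor of the growth kinase complex mTORC1 (mm10 chr10:59949669-59951834, minus strand). It was at 0.436 TPM in 1 day 7 library, which is 3 reads, and listed at 0 in the other. At day 21 it was at 51.7, 63.5 and 59.2 TPM in 4F and at 90.5 and 97.7 TPM in 8F, with no overlap. Its spread was the narrowest of the 15 in 4F, where the highest library was 1.23 times the lowest. Sesn2, another stress-induced brake on mTORC1 looked up after the data were seen, was at 15.03 and 22.1 TPM at day 7, 12.8, 3.31 and 12.5 TPM in 4F and 70.3 and 69.0 TPM in 8F. Tsc1 and Tsc2, the subunits of the complex that restrains mTORC1, were at 27.2 to 44.5 TPM in every library of either day.

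Mt4 encodes a metallothionein, a small cysteine-rich metal-binding protein, known from stratified squamous epithelium (mm10 chr8:94137197-94139031, plus strand). It was listed at 0 at day 7 and was at 89.0, 79.2 and 33.0 TPM in 4F and 90.5 and 61.4 TPM in 8F. The third 4F library was the lowest, and it stood on 55 estimated reads. Its metal-induced relatives, 33633 and 40051 bases away on the same strand, ran the other way: Mt2 was at 12.1 and 36.5 TPM and Mt1 at 45.8 and 61.6 TPM at day 7, and both were listed at 0 in all 3 4F libraries of day 21 and at most 1.02 TPM in 8F. Mt3, between them and Mt4, was at most 0.447 TPM in any library.

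Acot3 encodes a peroxisomal acyl-CoA thioesterase and lies in a cluster of similar genes (mm10 chr12:84052144-84060402, plus strand). It was at 0.371 TPM in 1 day 7 library and listed at 0 in the other, and was at 22.7, 10.0 and 25.003 TPM in 4F and 45.3 and 39.1 TPM in 8F. Both 8F libraries lay above the 4F range. Its mitochondrial relative Acot2 was at 37.5 and 29.6 TPM at day 7 and 3.25 to 14.7 TPM at day 21, Acot4 was at most 4.52 TPM in any library, and Acot1 and Acot6 were at most 0.293 TPM. Acot5, 8923 bases from Acot3, had values of 0 at day 7 and in 4F replicates 1 and 2 of day 21, and was at 8.95 TPM in 4F replicate 3 and at 2.97 and 1.67 TPM in 8F. The authors kept uniquely mapped reads, which lowers the values of near-identical copies, so levels within this cluster are uncertain.

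Cd7 encodes an immunoglobulin superfamily receptor of T and natural killer cells (mm10 chr11:121036747-121039418, minus strand). It was at 0.225 TPM in 1 day 7 library, a single read, and listed at 0 in the other, and was at 70.8, 55.8 and 100.3 TPM in 4F and 50.6 and 64.7 TPM in 8F. Clec12a, an inhibitory C-type lectin receptor of myeloid cells, was listed at 0 at day 7 and was at 30.8, 20.9 and 10.1 TPM in 4F and 44.8 and 32.7 TPM in 8F (mm10 chr6:129342691-129365303, plus strand). The 4F libraries of Clec12a spread over 3.05 times, the widest of the 15, and all lay below both 8F libraries. Defining leukocyte genes were at or near 0: Cd3e was listed at 0 in all 7 libraries, and the pan-leukocyte gene Ptprc in all but the 8F libraries, at 0.0375 and 0.116 TPM. Clec12b, 10212 bases from Clec12a, was at most 0.546 TPM. The 9 other genes of this list, written after the data were seen, summed to at most 6.89 TPM in any library.

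Lef1, a high mobility group factor of Wnt and beta-catenin signalling, was at 0.174 TPM and 0 at day 7, at 15.1, 17.9 and 11.1 TPM in 4F and at 24.1 and 14.8 TPM in 8F (mm10 chr3:131110471-131224356, plus strand). Its relative Tcf7 was already at 57.3 and 53.5 TPM at day 7 and stood at 128.6 to 155.7 TPM at day 21, while Tcf7l1 was at 16.2 and 17.3 TPM and then 6.89 to 13.2 TPM. Tcf7l2, the fourth gene of the family, was at 3.78 and 6.07 TPM and then 5.18 to 12.3 TPM, so Lef1 alone was near 0 at day 7.

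Cdh4 encodes R-cadherin, a cell adhesion protein of neural and renal tissue (mm10 chr2:179442431-179899373, plus strand). It was at 0.105 TPM and 0 at day 7, at 12.9, 15.1 and 19.1 TPM in 4F and at 11.1 and 11.0 TPM in 8F, where both libraries lay below the 4F range. The cadherin genes Cdh1 and Cdh3 were far higher on both days, at 116.2 and 149.3 TPM and at 93.6 and 95.8 TPM at day 7. Cdh2 was at 3.85 and 0 TPM at day 7 and 4.22 to 11.7 TPM at day 21, and Cdh15 was at most 0.792 TPM in any library. Sh3gl3, which encodes the endocytic membrane-bending protein endophilin A3, was at 0.0590 and 0.355 TPM at day 7, at 17.3, 10.5 and 11.8 TPM in 4F and at 13.9 and 14.5 TPM in 8F (mm10 chr7:82173840-82307419, plus strand). Sh3gl1, its widely expressed relative, was at 10.2 and 14.6 TPM at day 7 and 34.6 to 60.0 TPM at day 21.

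Susd3, a membrane protein with a sushi domain, was listed at 0 and 0.203 TPM at day 7, at 17.6, 27.6 and 29.0 TPM in 4F and at 15.2 and 18.3 TPM in 8F (mm10 chr13:49230690-49248706, minus strand). Susd2 was at 8.16 and 14.0 TPM at day 7 and at most 2.14 TPM at day 21. Tbc1d30, whose TBC domain marks it as a GTPase-activating protein for Rab proteins, was at 0.114 and 0.284 TPM at day 7, at 10.5, 12.3 and 15.7 TPM in 4F and at 11.5 and 11.6 TPM in 8F (mm10 chr10:121263820-121351278, minus strand). For both genes the 4F and 8F libraries overlapped.

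**Figure D3:**
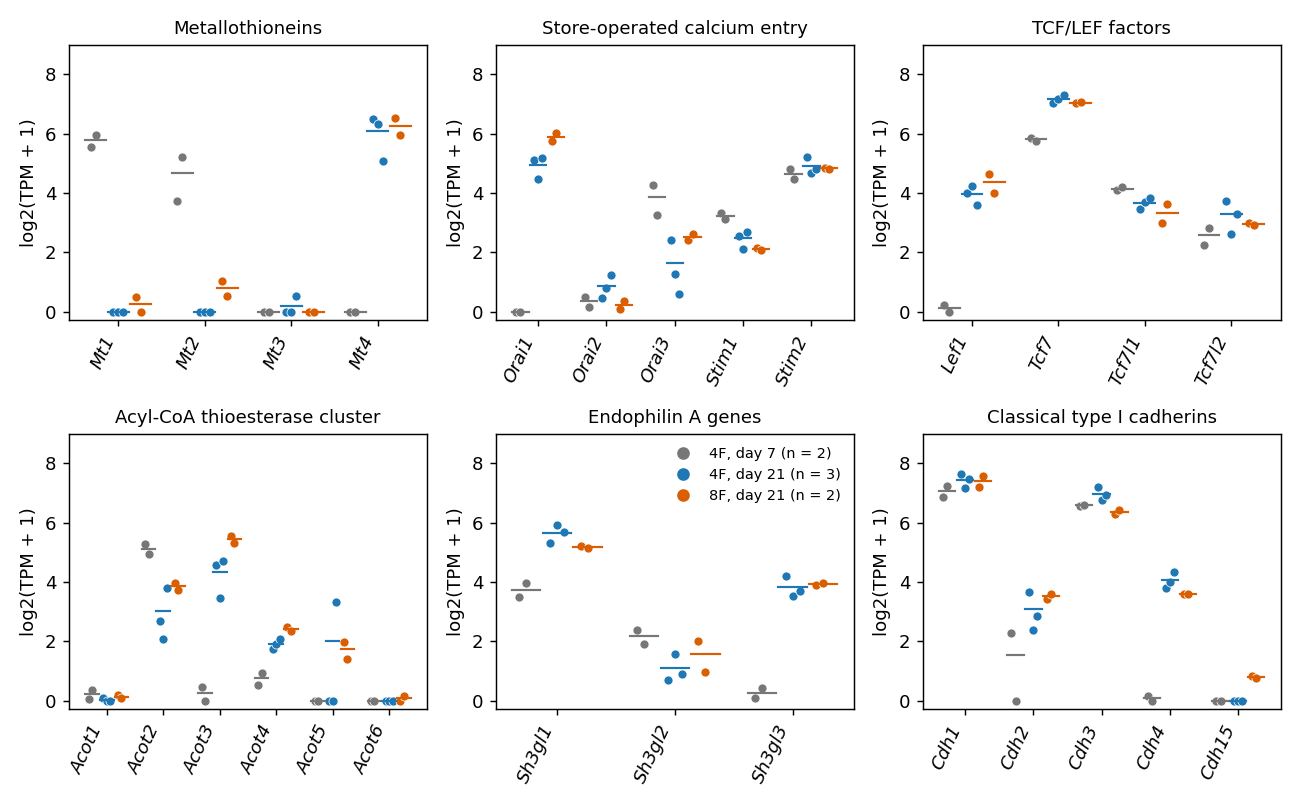
Each panel shows a gene family of 1 of the 15 genes on the log2(TPM + 1) scale, with a point for each library and a bar for each group's mean, and the lists were written after the data were seen. Mt4 is high at day 21 where Mt1 and Mt2 are at or near 0, Orai1 where Orai3 is below its day 7 level, and Acot3 where Acot2 is below its day 7 level. Each of Lef1, Sh3gl3 and Cdh4 stands beside some relatives present on both days.

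All 15 genes are protein coding and lie on 10 chromosomes, with 3 on chromosome 6 and no pair closer than 24.2 Mb, so the genes do not form a cluster. Several have a neighbouring transcript with the same course, while 25.3% of all genes tested were called higher at day 21 than at day 7 in 4F. Plut, a long noncoding RNA antisense to Pdx1, was at 0 and 0.555 TPM at day 7 and at 9.90 to 22.1 TPM at day 21, and shares no exonic base with Pdx1. Gm2479, antisense at the start of Orai1 with 7 shared exonic bases, was at 0 and 7.20 TPM at day 7 and 40.5 to 80.0 TPM at day 21, and Gm44574, 2200 bases away, at 0 and 6.14 TPM and then 136.2 to 195.5 TPM. Farther along the same stretch, Kdm2b, which encodes a histone demethylase, was at 14.9 and 9.32 TPM at day 7 and 100.2 to 122.3 TPM at day 21. Around Orai1 several transcripts were thus higher at day 21, but Gm6444 went from a mean of 6.61 to 1.10 TPM. No neighbour of Cpa1 or Clec12a within 50 kb was higher in every day 21 library than in both day 7 libraries. Beside other genes, Taf4 near Cdh4 (means of 19.6 and 69.6 TPM) and Card19 near Susd3 (19.3 and 64.5 TPM) were higher at day 21. Hadh near Lef1 was lower (22.9 and 10.8 TPM). Whether neighbours rose more often than other genes was not tested.

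For Cd7 and Acot3 the neighbour overlaps the gene itself. Gm11775, antisense to Cd7, shares 122 exonic bases with it (10.8% of Cd7 exons) and was at 0.330 and 0 TPM at day 7 and 26.1 to 37.5 TPM at day 21. Gm49366, on the same strand as Acot3, shares 396 exonic bases (11.5%) and was listed at 0 at day 7 and was at 37.5 to 90.0 TPM at day 21. Both overlapping genes met the limits of the rule and were dropped for their symbols. The counting split a read over 2 genes between them, and its stated options name no strand, so reads in shared bases cannot be told apart. In all, 6 of the 15 genes share exonic bases with another gene, and for Lef1 and Sh3gl3 that other gene was at most 0.202 TPM in any library. Tbc1d30 shares 262 exonic bases (3.89%) with the antisense Gm48435, which was at 0 at day 7 and at 0 to 13.3 TPM at day 21. Acot3 also shares 312 (9.08%) with the antisense 4732463B04Rik, at most 6.02 TPM in any library.

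**Figure D4:**
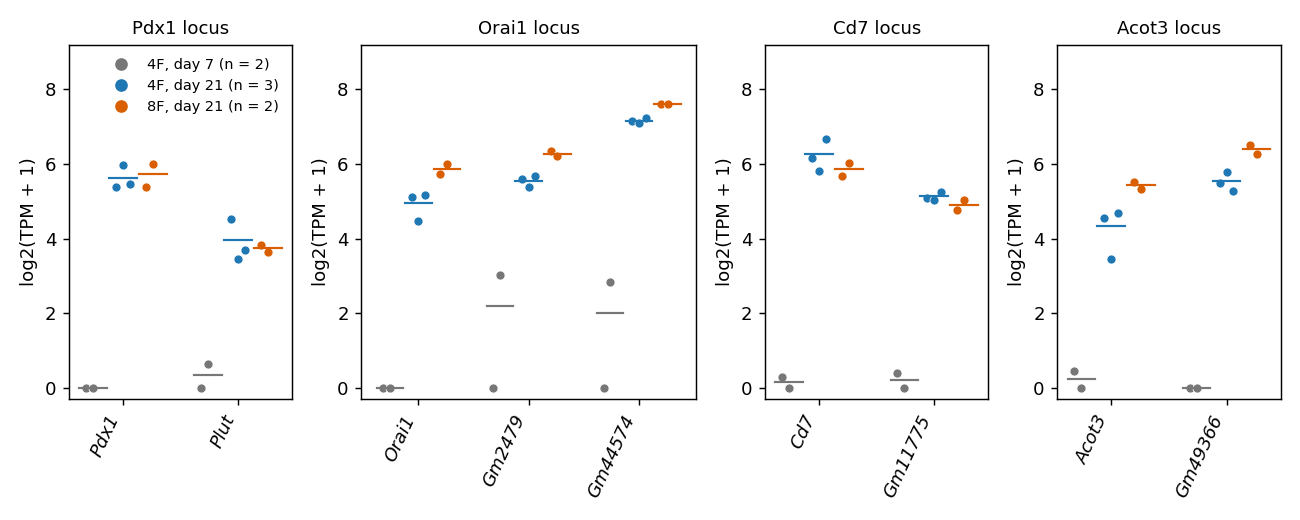
The panels show Pdx1, Orai1, Cd7 and Acot3 beside neighbouring or overlapping transcripts, with log2(TPM + 1) on the vertical axis, a point for each library and a bar for each group's mean. Plut, Gm2479, Gm44574, Gm11775 and Gm49366 are all higher in every day 21 library than in either day 7 library. These transcripts were picked from the neighbours after the values were seen, and 25.3% of all genes tested were called higher at day 21 in 4F.

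The comparison of 8F- with 4F-mini-oocytes at day 21 asks whether these genes had other levels in the 8F line, and the rule did not use that difference. The errors are not free of the rule. Each gene's spread was estimated over all 7 libraries, so the day 7 values that the rule kept low enter every SE, interval and p-value. With the 5 day 21 libraries alone, Ddit4 passed FDR 0.05. The added factors and other differences between the lines, such as the Npm2-mCherry reporter, cannot be told apart. The floor of 10 TPM in all 5 libraries still limits how far a gene can fall in either line. None of the 15 passed FDR 0.05 in limma on log2(TPM + 1), fitted to 21780 genes, while 8.37% of all genes tested did (3.95% higher and 4.41% lower in 8F). Of the 8319 tested genes that also had 10 TPM or more in all 5 day 21 libraries, 12.2% did. At an unadjusted p under 0.05 there were 4 of the 15, Cpa1, Ddit4, Orai1 and Acot3, all higher in 8F, beside 22.3% of all genes. The same 4 passed FDR 0.05 in limma voom on reads recovered from the TPM, a fit added once the values were known, and 3 of them (Cpa1, Ddit4 and Orai1) with array weights. Array weights also called more of all genes, as given below, and the voom share over all genes is not given here. These counts are thus not a result about the 15, and in most other settings none of them passed.

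Acot3 had the largest log2 fold change in this contrast, 1.19 (SE 0.431, 95% interval 0.15 to 2.22), with an adjusted p of 0.167 and a mean of 42.2 ± 4.38 TPM (SD, n = 2) in 8F against 19.2 ± 8.08 TPM (SD, n = 3) in 4F. Orai1 followed among the 4 at 0.95 (SE 0.289, interval 0.26 to 1.64, adjusted p of 0.108). Ddit4 was at 0.69 (SE 0.215, interval 0.17 to 1.21, adjusted p of 0.115) and Cpa1 at 0.65 (SE 0.185, interval 0.21 to 1.09, adjusted p of 0.0905). These intervals exclude 0 for single genes, and the differences did not hold after adjustment over all genes. Clec12a had a difference of 0.99 with a wider error (SE 0.468, interval -0.13 to 2.11, adjusted p of 0.283). In the same limma fit Gm49366, which shares exonic bases with Acot3, was at 0.86 (SE 0.224, adjusted p of 0.068). How far reads in the shared bases enter the Acot3 difference was not tested.

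Both 8F libraries lay above all 3 4F libraries for 5 genes (Cpa1, Ddit4, Orai1, Acot3 and Clec12a) and below them for Cdh4. Of all genes tested, 24.1% were higher and 19.8% lower without overlap, 43.8% in all, so 6 of 15 is a share near that of all genes. Among the 8319 tested genes that also had 10 TPM or more in all 5 day 21 libraries, 23.5% were higher and 32.4% lower without overlap. The lowest differences were those of Susd3 (-0.51, interval -1.29 to 0.28), Cdh4 (-0.45, interval -1.23 to 0.32), Cd7 (-0.35, interval -1.04 to 0.33) and Tbc1d30 (-0.12, interval -0.92 to 0.67). Pdx1 differed by 0.09 with an interval from -0.60 to 0.78, which leaves room for a change of either sign. In all, 11 of the 15 were positive and 4 negative, and the median was 0.27 beside 0.06 over all genes tested and -0.05 over the 8319 tested genes that also had 10 TPM or more in all 5 day 21 libraries.

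**Figure D5:**
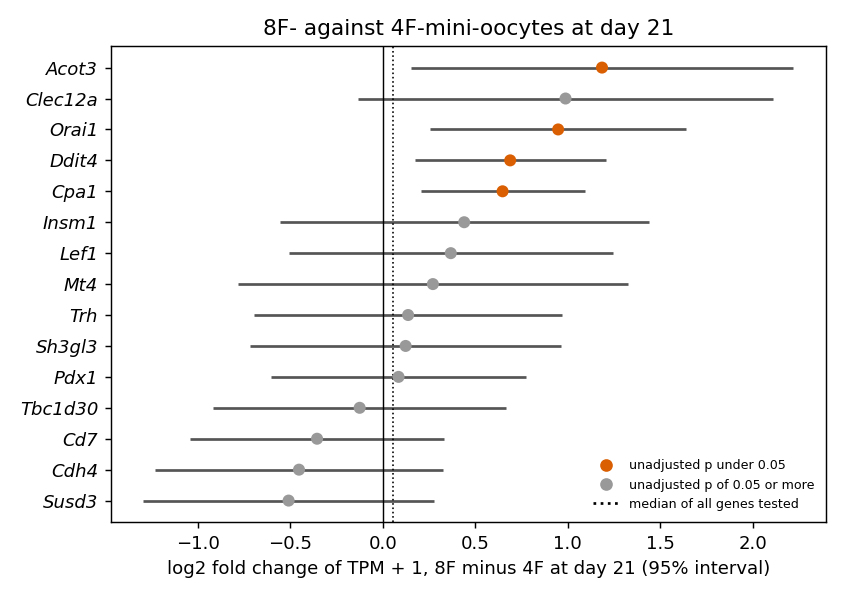
Points are log2 fold changes of TPM + 1 in 8F (n = 2) minus 4F (n = 3) at day 21 and lines their 95% intervals from limma, with the median of all genes tested (0.06) dotted. The intervals of Acot3, Orai1, Ddit4 and Cpa1 lie above 0 and those of the other 11 genes include 0.

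Among the 3 4F libraries at day 21 the 15 genes did not move as 1 block. Replicate 1 was the lowest for 6 genes, replicate 2 for 6 and replicate 3 for 3, and replicate 3 was the highest for 7. The median coefficient of variation of the 15 genes in 4F was 25.7%, beside 18.4% over the 8351 genes from 10 TPM to the 4F level of Cpa1. In 5 genes (Clec12a, Mt4, Acot3, Insm1 and Trh) the highest 4F library was more than 2 times the lowest, and each of these 4F pools held 10 cells.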

How the data were processed

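RNA-seq values of 7 mini-oocyte libraries were analysed, grouped by the sample labels. The authors used Trim Galore, HISAT2 on mm10, bedtools to remove rRNA reads and featureCounts on GENCODE vM25 with uniquely mapped reads and fractional counts for overlaps, and deposited TPM; tool versions are not given in the sources used here. NovaSeq instrument and read length differed between libraries that the methods do not name. Replicates were not pooled.

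The 15 genes, the lists and the tests were chosen with earlier results of these data known, and the lists of relatives, islet, leukocyte and mTORC1 genes after the values were seen. Every one of the 15 is named. The 21780 genes that reached 1 TPM in 2 or more libraries were fitted with limma 3.58.1 in R 4.3.3 on log2(TPM + 1) in 3 groups, with a trend and no replicate block, and p-values were two-sided and adjusted by the Benjamini-Hochberg method. On this scale, changes of low genes are understated. The test was also run on simulated reads, where it missed most of the smaller changes and called some unchanged genes. A missed threshold therefore does not show a lack of change. The study tested counts with edgeR, which were not used here.

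Low values rise in steps of 1 read: with GENCODE vM21 exon lengths, 74.8% to 80.6% of low values per library came within 0.02 of a whole number of reads, and reads were estimated from these steps. Of the genes listed, 54312 matched vM21 with their version and 55104 without it. Coordinates are those of vM21 on mm10, and promoter windows are RefSeq's on GRCm38.p6. Alternatives were other pseudocounts, filters, scalings, weights, a replicate block, only the day 21 libraries, each library left out, other limits of the rule and voom on recovered reads.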

Additional observations from a re-analysis of the deposited data

How the results depend on the processing

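The number of genes that met the rule depended on its limits. It was 15 as described, 26 with a day 7 limit of 1 TPM, 11 with 0.25 TPM, 7 for genes listed at 0 in both day 7 libraries, 27 with a day 21 limit of 5 TPM, 6 with 20 TPM and 9 after median-of-ratios rescaling. The count of these genes past FDR 0.05 in 8F minus 4F was 0 as described and 1 with a pseudocount of 5 TPM (Ddit4), 3 with array weights (Cpa1, Ddit4 and Orai1), 1 with the 5 day 21 libraries alone (Ddit4) and 4 with voom, chosen after the data were seen (Acot3, Cpa1, Ddit4 and Orai1), and the cause was not tested. It was 0 with a pseudocount of 0.1 TPM, without a filter, with a 5 TPM filter, with median-of-ratios or quantile scaling and without a trend. With single libraries left out it was 0 to 1, the 1 being Ddit4 without either day 7 library. The median difference ran from 0.15 to 0.41 over all these settings and from 0.15 to 0.40 with single libraries left out. For voom the count over all genes is not given here, so its 4 genes have no share of all genes beside them.

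Of all genes tested, 1822 passed FDR 0.05 as described, 994 without a trend, 3572 with array weights and 306 to 2221 with single libraries left out. Of 270 values of single genes in other settings, 249 kept their direction and their side of the threshold, 11 became significant and 10 changed sign. The changes of sign were in genes with small differences. With single libraries left out, Mt4 ran from -0.17 (without the third 4F library) to 0.55 and came to -0.0054 without the first 8F library, and Pdx1 ran from -0.22 (without the second 8F library) to 0.39 and came to -0.025 without the first 4F library. Trh ran from -0.073 (without the first 4F library) to 0.41, Sh3gl3 from -0.014 (without the second 4F library) to 0.32 and Tbc1d30 from -0.25 to 0.021 (without the third 4F library). Tbc1d30 came to 0.033 with voom.

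Equal replicate numbers did not pair the samples: over 6 pairs of equal number, the correlation of deviations from group means ran from -0.04 to 0.01, and 0 pairs were over 0.1. With the replicate number as a block, 0 of the 15 genes and 164 of all genes passed FDR 0.05, the median difference was 0.19, Mt4 came to -0.17 and Tbc1d30 to 0.021. Groups of 2 and 3 libraries limit the precision, with SEs from 0.185 to 0.468 on the log2 scale, and Mt4 rests on 55 to 210 estimated reads per day 21 library.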

Other observations

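With a day 21 limit of 5 TPM, the genes added were Cited4, Defb48, Grm2, Il7, Irf8, Irx1, Isl2, Rtn4r, Scn10a, Spam1, Sult2a4 and Upp1, chosen by that limit after the data were seen. They include Spam1, a sperm hyaluronidase, Il7, a lymphoid cytokine, and the homeobox genes Irx1 and Isl2. With a day 7 limit of 1 TPM, the genes added included Dnmt3l, a germline cofactor of DNA methylation, Kcnq1, a potassium channel, and Unc5a, a netrin receptor. Il7 was at 0 and 0.372 TPM at day 7, at 13.2, 7.19 and 13.4 TPM in 4F and at 12.2 and 15.3 TPM in 8F. Kcnq1 was at 0.591 and 0.0468 TPM at day 7, at 31.4, 24.9 and 35.4 TPM in 4F and at 27.1 and 26.1 TPM in 8F, and missed the rule by its day 7 value alone.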
